A study of Mus musculus with 15 samples.

Results

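The genes described here mark the cells that build the blood vessels of the brain: endothelial cells, which line the vessel, and the pericytes and smooth muscle cells (mural cells) that wrap around it. The members were a list of 32 gene symbols, taken by name, with a mean expression value of at least 3 over all mice required for testing. All 32 passed that minimum, out of 24982 symbols in the table and 15261 that were tested. They fall into 12 genes of endothelial identity, 10 genes of the blood-brain barrier and its transporters, 7 pericyte genes and 3 smooth muscle genes.

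Ventral striatum RNA of 15 adult mice (2 to 3 months old) was sequenced, each sample holding tissue from both hemispheres of 1 mouse. There were 3 *Fmr1* KO males, 4 *Fmr1* KO females, 4 WT males and 4 WT females. Expression was read as regularized log values (rlog), where a difference of 1 is a doubling. Such values do not show the depth of a mouse, so errors come from the spread between mice alone. The *Fmr1* KO mice lack the gene that is silenced in fragile X syndrome, and their line was kept by mating hemizygous males to homozygous females. The KO is constitutive, so it affects every cell type. The WT mice were C57BL/6J, the strain also given for the KO mice, and are not stated to be littermates. All mice had completed a battery of behavioral tests before the tissue was collected. One further *Fmr1* KO male, which the authors left out after a principal component analysis, was not analysed here.

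Endothelial cells of the brain are joined by tight junctions and carry transporters that move glucose, hormones and other solutes across the vessel wall while pumping many drugs back into the blood. Their identity depends on signaling through receptors for vascular endothelial growth factor and angiopoietins. Pericytes share a basement membrane with the endothelium and are recruited to it by platelet-derived growth factor, and smooth muscle cells form a contractile ring around arterioles. In the brain both kinds of mural cell take part in the control of local blood flow.

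The promoters of 3 receptor genes of endothelial identity are shown because these genes varied together most closely among those with a single start site in the reference, as given below. The windows are RefSeq sequences of build GRCm38.p6, written 5′ to 3′ along the strand of the gene, and run from 250 bases before the start to 50 bases after it. Capitals mark matches to AGGAAG or its variant CGGAAG on either strand (CTTCCT is the reverse complement of the first and CTTCCG that of the variant). ETS transcription factors of endothelial cells are known to bind such strings. Other strings that hold GGAA were not marked. *Flt1* lies at chr5:147725962-147726261 on the minus strand, *Tek* at chr4:94739039-94739338 on the plus strand and *Kdr* at chr5:75978406-75978705 on the minus strand.
Flt1: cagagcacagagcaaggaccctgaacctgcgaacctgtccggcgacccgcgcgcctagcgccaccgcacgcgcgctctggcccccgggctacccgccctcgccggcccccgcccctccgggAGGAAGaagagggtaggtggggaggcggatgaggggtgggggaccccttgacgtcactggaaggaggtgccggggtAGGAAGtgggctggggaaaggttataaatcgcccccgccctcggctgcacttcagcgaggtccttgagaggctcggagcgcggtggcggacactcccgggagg
Tek: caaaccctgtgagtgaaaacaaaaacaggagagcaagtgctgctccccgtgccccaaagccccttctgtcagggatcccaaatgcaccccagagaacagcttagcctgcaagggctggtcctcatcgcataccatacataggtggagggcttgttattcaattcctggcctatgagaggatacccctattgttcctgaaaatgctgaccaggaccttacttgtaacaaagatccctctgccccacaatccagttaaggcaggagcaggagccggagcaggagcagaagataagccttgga
Kdr: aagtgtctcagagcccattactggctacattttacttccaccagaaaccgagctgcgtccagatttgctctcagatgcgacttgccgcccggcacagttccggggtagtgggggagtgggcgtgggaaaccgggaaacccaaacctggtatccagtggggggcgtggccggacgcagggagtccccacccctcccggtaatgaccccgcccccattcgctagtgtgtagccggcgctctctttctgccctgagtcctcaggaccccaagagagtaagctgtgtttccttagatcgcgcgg
The *Flt1* window held 2 matches, and the *Tek* and *Kdr* windows held 0. Windows were found for 21 of the 32 genes, some with several start sites. There was a match in 13 of 20 windows of endothelial and barrier genes (65.0%) and in 0 of 6 windows of mural genes. Over all 32851 windows of this length in the reference the share was 46.5%. A match to these letters is a description of the sequence and not a binding site.

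*Fmr1* was lower in every KO mouse than in every WT mouse. It lay between 9.82 and 10.08 in KO mice and between 10.62 and 10.88 in WT mice, a log2 fold change of -0.84 (limma adjusted p = 2.90e-07). Mice of a group correlated with each other at r of 0.992 to 0.9991 across genes. Lists of other cells in the tissue were measured in the same fit. A list of 17 striatal projection neuron genes had log2 fold changes below 0 for 17 of 17 genes, with a median of -0.49, 2 genes past the threshold (*Penk* and *Pdyn*) and a mean level per mouse (the score, relative to the mean of all mice) of -0.85 to 0.07 in KO mice and -0.24 to 0.41 in WT mice. A list of 12 genes of neighboring regions had a median of 0.42 and none past the threshold. WT male 3 and WT female 1, whose projection neuron scores were -0.02 and -0.24, had the lowest of the WT mice. The part of tissue makeup in the vessel gene results was examined only in the ways given below. These were the covariate, the left-out mice and the correlation of *Tagln* with the projection neuron score.

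The defining genes of endothelial cells, pericytes and smooth muscle were all well above the minimum in every mouse. Per kilobase of exon and on the log2 scale, the highest levels in WT mice were those of *Bsg* (11.5), which is also made by neurons and glia, *Itm2a* (9.55), *Vtn* (9.48) and *Slc2a1* (8.81). The tight junction gene *Cldn5* stood at 8.29, the pericyte receptor *Pdgfrb* at 7.26, and the smooth muscle genes *Tagln* and *Acta2* at 7.22 and 7.15. *Myh11*, the smooth muscle myosin heavy chain, stood at 5.41, and the lowest were *Vwf* (4.42) and *Anpep* (4.37). Of blood cell genes, the hemoglobin genes *Hbb-bs* and *Hba-a1* were listed at 0 in every mouse, and *Alas2* lay between 5.76 and 6.00 in KO mice and between 5.57 and 6.07 in WT mice. A value of 0 in every mouse was shared by 4759 symbols and does not show that blood was absent.

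The first comparison asked whether vessel genes differed between *Fmr1* KO and WT mice over both sexes. *Tagln*, which encodes the actin-binding protein transgelin of smooth muscle, was lower in KO mice and was the 1 gene of 32 past the threshold (an adjusted p of 0.05), where 1.28% of all genes tested passed in either direction and 0.793% were lower. Log2 fold changes were below 0 for 25 of the 32 genes, against 48.9% of all genes, but most were small. The 32 genes varied together from mouse to mouse (median r of 0.59, given below). Counts of direction, here and in the later comparisons, are therefore not counts of separate observations. The median was -0.04 for the 32 genes and 0.00 (0.0021) for all genes. It was -0.0038 without KO female 1, -0.0154 without WT female 4, -0.0693 without KO male 1, -0.0747 without WT male 3, -0.0865 without WT male 3 and WT female 1, -0.11 with sample quality weights and 0.0011 with the projection neuron covariate. At an unadjusted p of 0.05, 3 genes were lower (*Tagln*, *Slco1c1* and *Itm2a*) and 0 were higher, where 11.8% of all genes were lower and 11.6% higher. In whole tissue, fewer cells of a type and less RNA per cell cannot be told apart. The limma p-values set each difference against the spread between these mice, moderated over all genes.

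*Tagln* was listed at 7.68, 7.67 and 7.70 in KO males and at 7.45, 7.82, 7.80 and 7.73 in KO females. In WT males it was 8.25, 8.45, 7.87 and 8.29, and in WT females 7.82, 8.22, 8.35 and 8.47. All 7 KO mice lay below all 8 WT mice, and this was the only one of the 32 genes whose genotypes did not overlap, where 0.21% of all genes separated with KO lower. The gap was narrow, since the highest KO mouse stood at 7.818 and the lowest WT mouse, WT female 1, at 7.822. The log2 fold change was -0.52 ± 0.10 (SE, 95% interval -0.73 to -0.31, limma adjusted p = 0.0335). An exact 2-sided permutation test of this gene within each sex gave p = 0.00204, where the smallest possible value was 0.000408. *Tagln* was picked by its values in these same mice, so this test and those in each sex below are no separate evidence. The difference was of nearly the same size in males (-0.53, adjusted p = 0.127; -0.64, adjusted p = 0.0181 without WT male 3) and females (-0.52, adjusted p = 0.238; -0.65, adjusted p = 0.0551 without WT female 1), and their difference was 0.01 (95% interval -0.42 to 0.45). Exact permutation tests in each sex gave p = 0.0571 in males and 0.0286 in females, and 0.0286 is the smallest value that either design allows.

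The call of *Tagln* was not stable when single mice were left out. It was lost in 9 of 15 such fits, with log2 fold changes of -0.59 to -0.48 and adjusted p-values of 0.00456 to 0.0891. It was held without WT female 1 (adjusted p = 0.00456), without WT male 3 (0.00920) and without any one of the 4 KO females, and it was lost without any one of the KO males or of the other WT mice. Without both WT male 3 and WT female 1, a choice made after the data were seen, the change was -0.65 (adjusted p = 0.000294). With a covariate for the projection neuron score it was -0.34 (adjusted p = 1.00), a fit in which 1 gene of all those tested was called.

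**Figure D1:**
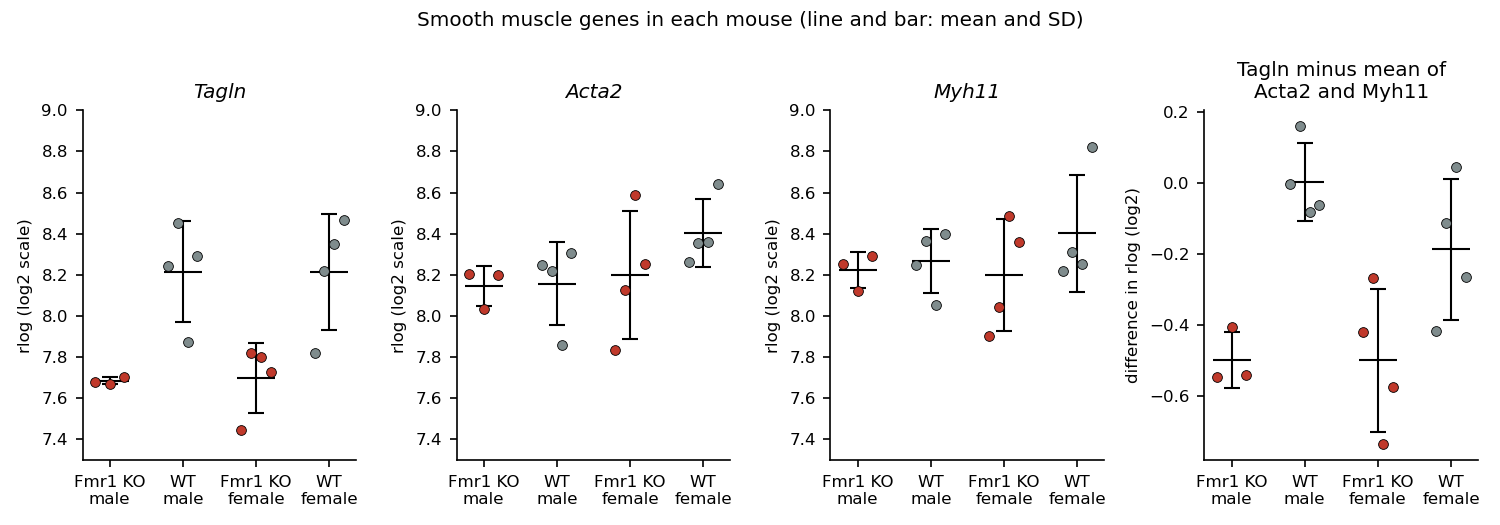
Values of *Tagln*, *Acta2* and *Myh11* (rlog, log2 scale) and of *Tagln* minus the mean of the other genes in each mouse, by group, with each point a mouse and the line and bar the mean and SD. *Tagln* lies between 7.45 and 7.82 in the KO mice and between 7.82 and 8.47 in the WT mice, while KO and WT mice overlap in *Acta2* and *Myh11*.

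The other smooth muscle genes did not show the same separation. *Acta2*, the smooth muscle actin, was 8.20, 8.03 and 8.20 in KO males and 7.83, 8.13, 8.59 and 8.25 in KO females, against 8.25, 8.22, 7.86 and 8.31 in WT males and 8.26, 8.35, 8.36 and 8.64 in WT females. KO and WT mice overlapped widely, and the log2 fold change was -0.12 (95% interval -0.33 to 0.10, adjusted p = 0.523). It was -0.05 without KO female 1 and -0.17 without KO female 3. *Myh11* ranged from 7.90 to 8.49 in KO mice and from 8.05 to 8.82 in WT mice, with a log2 fold change of -0.13 (95% interval -0.35 to 0.09, adjusted p = 0.478). Exact permutation tests of each gene within sex, added after the values were seen, gave p = 0.329 for *Acta2* and 0.294 for *Myh11*.

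Taken within each mouse, *Tagln* minus the mean of *Acta2* and *Myh11*, a measure also chosen after the values were seen, was -0.50 ± 0.15 in KO mice (SD, n = 7) and -0.09 ± 0.18 in WT mice (SD, n = 8; difference within sex -0.40, exact permutation p = 0.00163). In males it was -0.55 to -0.41 in KO mice and -0.08 to 0.16 in WT mice (exact permutation p = 0.0286, the smallest this design allows). In females it was -0.74 to -0.27 in KO mice and -0.42 to 0.04 in WT mice, which overlapped (exact permutation p = 0.0571). *Tagln* lies at chr9:45929619-45936058 (GENCODE, GRCm38) on the minus strand and overlaps *Pcsk7* on the other strand. The libraries were stranded, but the strand setting of the counting is not given in the sources used here. *Pcsk7* was 9.33 to 9.62 in KO mice and 9.42 to 9.71 in WT mice, a log2 fold change of -0.07 (adjusted p = 0.470). The related genes *Tagln2* and *Tagln3* had log2 fold changes of 0.03 and 0.08 (adjusted p = 0.768 and 0.369).

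Among the 10 barrier genes, 7 had a log2 fold change below 0 and none passed the threshold. *Slco1c1*, a transporter of thyroid hormone across the endothelium, was 10.34, 10.71 and 10.87 as the lowest, median and highest value in KO mice and 10.66, 10.88 and 11.03 in WT mice. It is also made by astrocytes. The genotypes overlapped, and the log2 fold change was -0.21 (95% interval -0.38 to -0.04, adjusted p = 0.136). It came to -0.01 with the projection neuron covariate. *Itm2a*, an X-linked membrane protein gene of endothelial cells, lay between 10.05 and 10.35 in KO mice with a median of 10.27, and between 10.20 and 10.55 in WT mice with a median of 10.36 (log2 fold change -0.09, adjusted p = 0.180). Both genes had the same direction in each sex. Of 10 astrocyte genes, 7 were above 0 (median 0.03), and their part in the value of *Slco1c1* was not tested.

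The 12 endothelial identity genes stayed near 0 over both sexes, with a median of -0.06, 11 below 0 and none at an unadjusted p under 0.05. *Cldn5*, the main claudin of the barrier, had a lowest, median and highest value of 8.55, 8.69 and 9.03 in KO mice and 8.47, 8.81 and 9.01 in WT mice, a change of -0.06 (95% interval -0.24 to 0.12; -0.11 to -0.02 when single mice were left out). *Pecam1*, a junction protein of all endothelium, had 9.03, 9.40 and 9.56 in KO mice and 9.20, 9.40 and 9.65 in WT mice, a change of -0.05 (95% interval -0.22 to 0.11). That of *Pecam1* turned to 0.01 without KO female 1 and to 0.03 with the projection neuron covariate. The intervals of *Cldn5* and *Pecam1* leave room for larger decreases than these estimates, and for increases, within the limits given.

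The 7 pericyte genes had a median of -0.01, with 4 below 0 and none past the threshold. *Anpep*, an aminopeptidase of pericytes that other cells around vessels also make, had 6.35, 6.50 and 6.66 as its lowest, median and highest value in KO mice and 6.19, 6.40 and 6.59 in WT mice. Its log2 fold change, 0.10, was the highest of the 32 genes (95% interval -0.01 to 0.21, adjusted p = 0.249). *Pdgfrb*, the platelet-derived growth factor receptor of pericytes, changed by -0.04 (95% interval -0.15 to 0.07).

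The remaining members are accounted for by their log2 fold changes over both sexes, none of which passed the threshold. Below 0 were the receptors *Flt1* (-0.07), *Tek* (-0.07) and *Kdr* (-0.04), the junction proteins *Esam* (-0.05) and *Cdh5* (-0.01), the transforming growth factor co-receptor *Eng* (-0.07), *Egfl7* (-0.09), *Emcn* (-0.04) and *Nos3* (-0.06). *Vwf*, the von Willebrand factor stored by endothelial cells, was the 1 endothelial identity gene above 0 (0.02). Of the barrier genes, the transporters *Slco1a4* (-0.10) and *Abcb1a* (-0.03), the surface proteins *Ly6c1* (-0.12) and *Ly6a* (-0.02), and *Pltp* (-0.03) were below 0, and *Abcg2* (0.05), *Bsg* (0.04) and *Slc2a1* (0.08) were above it. *Kcnj8* and *Abcc9*, which encode the subunits of a potassium channel of pericytes that senses ATP, lay at -0.03 and 0.06. *Vtn*, the matrix protein vitronectin, lay at -0.01, *Higd1b* at -0.09 and *Cspg4* at 0.00 (0.0034).

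**Figure D2:**
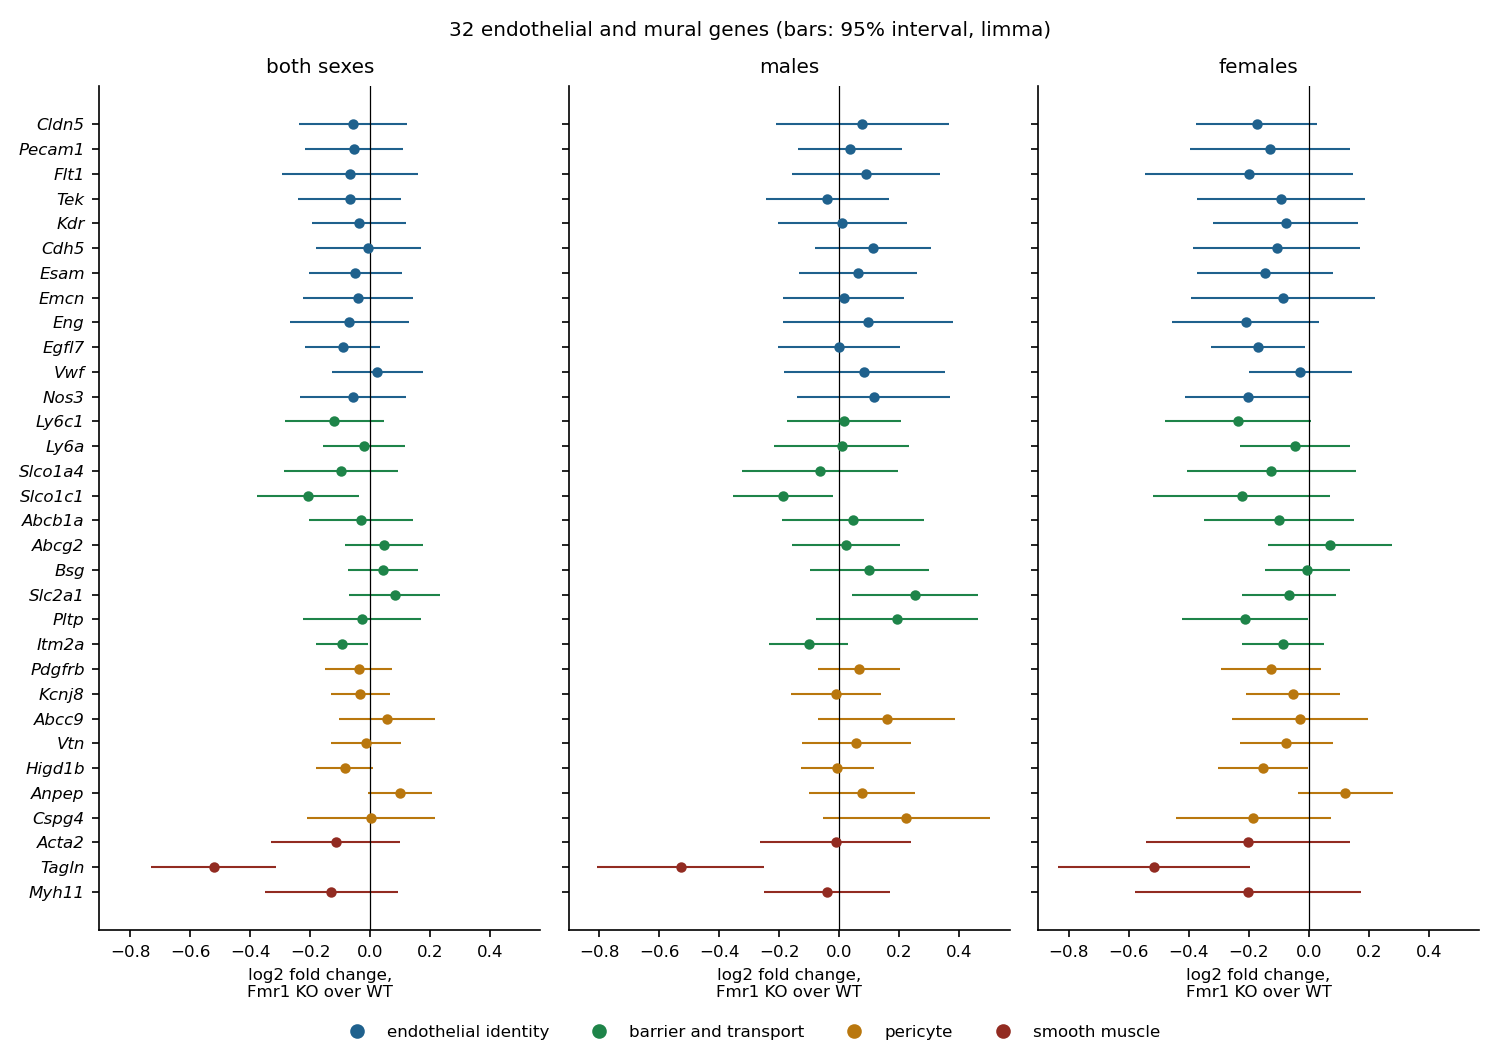
Log2 fold change of *Fmr1* KO over WT for each of the 32 genes over both sexes, in males and in females, with points for the estimates, bars for the 95% interval from limma and colors for the role of the gene. *Tagln* stands apart on the lower side in all panels, and 22 of 32 genes lie above 0 in males while 30 of 32 lie below 0 in females.

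KO and WT mice were then compared within each sex on its own. In males, 10 of the 32 genes were below 0 and 22 above it, where 49.9% of all genes were below, with a median of 0.04 against 0.00 (0.0002) for all genes, and 0 were past the limma threshold, which 0.00655% of all genes passed. At an unadjusted p under 0.05, *Tagln* and *Slco1c1* were lower and *Slc2a1* was higher, where 8.45% of all genes were lower and 8.75% higher. Without WT male 3, *Tagln* passed in males (-0.64, adjusted p = 0.0181) and the median of the 32 genes was -0.01. *Slc2a1*, the glucose transporter of the barrier, was 10.91, 10.68 and 10.86 in KO males and 10.61, 10.44, 10.45 and 10.77 in WT males. KO males were high but overlapped with WT male 4, and the log2 fold change was 0.25 (adjusted p = 0.224). *Slco1c1* had 10.71, 10.61 and 10.76 in KO males against 10.74, 10.99, 10.83 and 10.98 in WT males (log2 fold change -0.19, adjusted p = 0.247). KO and WT males did not overlap in *Tagln* and *Itm2a*, both lower in KO, where 8.58% of all genes separated on that side. *Itm2a* was 10.35, 10.31 and 10.32 in KO males and 10.35, 10.44, 10.37 and 10.55 in WT males, so that the nearest mice were equal to 2 decimals.

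In females, 30 of the 32 genes were below 0, against 48.8% of all genes, with a median of -0.13, and 0 were past the limma threshold, which 0.0131% of all genes passed. The exceptions were *Abcg2*, a drug efflux pump, and *Anpep*. Since the genes varied together, a few mice can set the direction of most of them. At an unadjusted p under 0.05, 4 genes were lower (*Tagln*, *Egfl7*, *Higd1b* and *Pltp*) and 0 were higher, where 7.93% of all genes were lower and 6.55% higher. *Egfl7*, an extracellular protein of endothelial cells, was 8.35, 8.40, 8.38 and 8.20 in KO females and 8.52, 8.47, 8.38 and 8.62 in WT females. *Pltp*, a phospholipid transfer protein, was 9.71, 9.56, 9.95 and 9.50 in KO females and 9.82, 9.97, 9.86 and 9.94 in WT females. *Higd1b*, a pericyte marker, was 5.79, 5.84, 6.01 and 5.98 in KO females and 6.02, 6.12, 5.98 and 6.10 in WT females. The log2 fold changes were -0.17, -0.21 and -0.15 in that order, with adjusted p-values of 0.316, 0.339 and 0.339, and in each gene at least 1 KO female lay within the range of the WT females. *Egfl7* overlaps *Agpat2* and *Pltp* overlaps *Ctsa* in the annotation. *Ly6c1*, an endothelial surface protein of mice, was lower in all KO females than in all WT females, as was *Tagln*, where 3.89% of all genes separated on the lower side (8.81, 9.23, 9.32 and 9.29 in KO females against 9.32, 9.49, 9.37 and 9.41 in WT females). The nearest mice were equal to 2 decimals. *Ly6c1* belongs to a family of near-identical genes whose reads can be split between members.

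The median in females stayed below 0 whichever mouse was left out (-0.17 to -0.04), but its size depended on single mice. KO female 1 had the lowest score of all 15 mice over the 32 genes (-0.25), and without it the median of the 32 genes in females was -0.04. Without WT female 4, the mouse with the highest score (0.20), it was -0.06. KO female 1 had the lowest value of *Flt1*, 10.54 where the other KO females had 11.08, 11.22 and 11.21 and the WT females 10.98, 11.24, 11.22 and 11.40.

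The genotype difference was 28 of 32 times more negative in females than in males (interaction below 0, against 48.1% of all genes), with a median of -0.15, and for all 12 endothelial identity genes. In limma 0 of 32 genes passed the threshold for this difference, as did 0.0% of all genes, and 3 were below 0 at an unadjusted p under 0.05 (3.46% of all genes). These were *Slc2a1* (-0.32, 95% interval -0.58 to -0.06), *Pltp* (-0.41, -0.75 to -0.06) and *Cspg4* (-0.41, -0.79 to -0.02), each with an adjusted p of 0.791. *Cspg4*, the NG2 proteoglycan of pericytes and oligodendrocyte precursors, was 9.08, 8.95 and 9.08 in KO males and 9.13, 8.69, 8.57 and 8.87 in WT males. In KO females it was 8.90, 8.48, 8.95 and 8.52, and in WT females 8.95, 8.85, 8.81 and 8.98. Of 8 genes of oligodendrocyte precursors, 6 were likewise below 0 for the interaction (median -0.12), and their part in the value of *Cspg4* was not tested. *Nos3*, the endothelial nitric oxide synthase, was 7.69, 7.42 and 7.63 in KO males and 7.61, 7.35, 7.26 and 7.64 in WT males, and 7.22, 7.23, 7.38 and 7.17 in KO females and 7.54, 7.39, 7.24 and 7.64 in WT females. Its interaction was -0.32 (95% interval -0.64 to 0.01, adjusted p = 0.791). *Nos3* overlaps *Atg9b* on the other strand, which lay between 7.11 and 7.80 in KO mice and between 6.96 and 7.64 in WT mice. Without WT male 3 the median interaction was -0.09 and without KO female 1 it was -0.07.

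Expressed as a score per mouse, the 22 endothelial and barrier genes averaged 0.02 ± 0.09 in KO males (SD, n = 3) and -0.02 ± 0.11 in WT males (SD, n = 4), and -0.06 ± 0.15 in KO females and 0.06 ± 0.09 in WT females (SD, n = 4 each). The 10 mural genes averaged -0.03 ± 0.06 in KO males and -0.02 ± 0.12 in WT males, and -0.05 ± 0.13 in KO females and 0.09 ± 0.11 in WT females. The KO and WT ranges overlapped in both sexes and for both scores. For all 32 genes the score differed between genotypes by 0.03 in males and -0.13 in females, where the SD between mice within a group was 0.11.

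**Figure D3:**
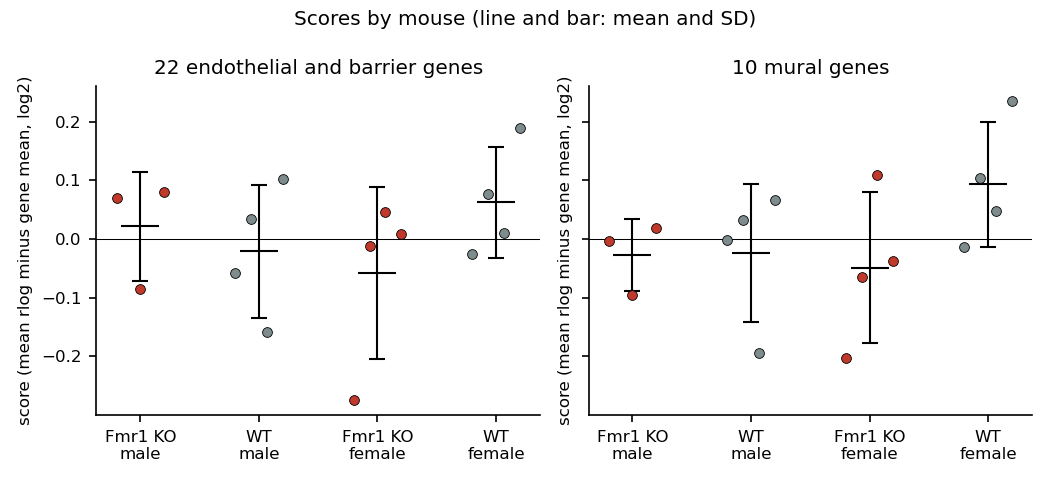
Score of the 22 endothelial and barrier genes and of the 10 mural genes in each mouse (rlog relative to the average of the gene over 15 mice, averaged over genes, log2 scale), by group, with the mean and SD. KO and WT mice overlap in each sex, with KO female 1 lowest and WT female 4 highest in both panels.

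WT females were set against WT males to see how these genes vary with sex alone. Log2 fold changes of females over males were above 0 for 24 of 32 genes, against 51.6% of all genes, with a median of 0.09 (0.04 without WT male 3 and 0.06 without WT female 4), and 0 of 32 passed the limma threshold, where 2.82% of all genes did. At an unadjusted p under 0.05, 3 genes were higher in females (*Cdh5*, *Emcn* and *Pdgfrb*) and 1 was lower (*Itm2a*), where 7.07% of all genes were higher and 7.95% lower. *Cdh5*, the cadherin of endothelial junctions, was 8.76, 8.99, 8.84 and 9.08 in WT females and 8.55, 8.59, 8.48 and 8.73 in WT males (log2 fold change 0.33, adjusted p = 0.140). *Pdgfrb* was 9.71, 9.85, 9.74 and 9.91 in WT females and 9.63, 9.71, 9.50 and 9.67 in WT males (0.17, adjusted p = 0.204). WT females lay above WT males without overlap in *Cdh5*, *Pdgfrb* and *Ly6c1*, where 4.37% of all genes did.

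*Emcn*, an endothelial sialomucin of capillaries and veins, was 7.82, 8.16, 7.94 and 8.11 in WT females and 7.58, 7.85, 7.63 and 7.75 in WT males (0.30, adjusted p = 0.240). *Itm2a* was 10.20, 10.26, 10.30 and 10.37 in WT females and 10.35, 10.44, 10.37 and 10.55 in WT males (-0.15, adjusted p = 0.224). All 7 pericyte genes were above 0 in this comparison, with a median of 0.12. The WT mice of this comparison also serve in the genotype comparisons, so its values and those of the females against KO are not independent.

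Within the groups, the vessel genes varied together from mouse to mouse. After the mean of each group was taken away, the 496 pairs of the 32 genes had a median Pearson r of 0.59 over 15 mice, and 60.5% reached 0.5. Among all 116441430 pairs of genes tested the median was 0.00 (-0.0019) and 12.7% reached 0.5. These are descriptions over mice that share the normalization and the dissection, whose part was not tested. The highest r were between *Slco1a4*, an organic anion transporter, and *Abcb1a*, the P-glycoprotein pump (0.97), between *Pecam1* and *Flt1* (0.97), and between *Kdr* and *Abcb1a* (0.97). *Flt1* and *Kdr*, both receptors for vascular endothelial growth factor, had r = 0.93. *Tek*, the angiopoietin receptor, was closest to *Pecam1* (0.91). Endothelial genes varied with mural genes (median 0.61 over 220 pairs) as they did among each other (0.60 over 231 pairs).

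The heat map of these correlations holds a second set. *Cldn5*, *Nos3*, *Slc2a1*, *Pltp* and *Egfl7* varied with each other at r of 0.59 to 0.90, and with *Flt1* at only 0.08 to 0.37. *Bsg*, a partner of lactate transporters, and *Cspg4* were close to each other (0.94) and to this set, and ran against *Slco1a4* (-0.50 and -0.46). Their median r with the other members was 0.05 and 0.06. This grouping was read from the plot and was not tested. *Tagln* was closest to *Kdr* (0.86), and its r was 0.72 with *Acta2* and 0.68 with *Myh11*, which had r = 0.90 with each other. Within each genotype, the r of *Tagln* with *Acta2* was 0.76 in KO mice and 0.65 in WT mice. That with *Myh11* was 0.63 in KO mice and 0.69 in WT mice. With the projection neuron score, the r of *Tagln* was -0.003 in KO mice and 0.87 in WT mice. Without the 2 mice farthest from the median of the partner gene or score, 5 KO and 6 WT mice were left. The r with *Acta2* was then 0.09 in KO mice and 0.07 in WT mice, and that with *Myh11* was -0.45 and 0.62. With the score it was 0.69 in KO mice and -0.28 in WT mice. Leaving out such mice narrows the range of the partner, which can itself lower r. The lower values therefore cannot show that the relations rest on those mice.

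**Figure D4:**
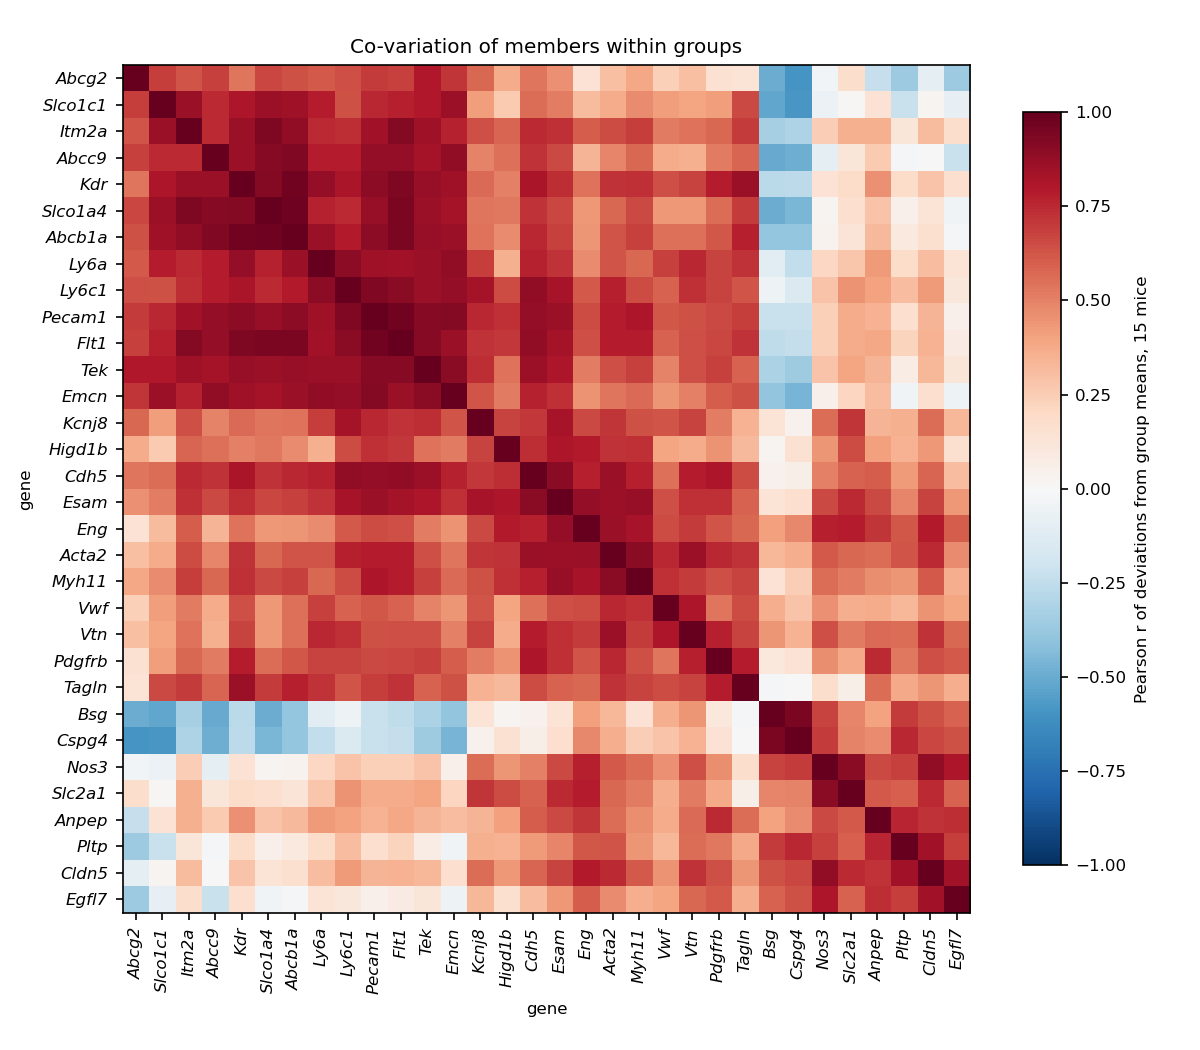
Pearson r of each pair of the 32 genes over 15 mice after the mean of each group was taken away, with genes ordered by average linkage and color for r. Most endothelial and mural genes form a block of positive r with a median of 0.59 over all pairs, while *Bsg* and *Cspg4* have r of 0.94 with each other and are negative with *Slco1a4*.

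The partners of these genes were read from lists chosen with results of these data known. Of 11 ligands and partners of the endothelial growth factor receptors, none passed the threshold and the median was 0.02. *Angpt1*, the angiopoietin that activates *Tek* and is made by mural and other cells, had a log2 fold change of 0.44 (adjusted p = 0.0577), and the co-receptor *Nrp1* one of 0.26 (adjusted p = 0.130). Of 13 genes of platelet-derived growth factor, transforming growth factor and sphingosine phosphate signaling none passed (median -0.03), with 0.20 for the ligand *Pdgfd* (adjusted p = 0.0834) and -0.12 for the receptor *S1pr1* (adjusted p = 0.152). Of 25 genes of Wnt and Notch signaling at the barrier none passed (median -0.02), with -0.23 for the Notch target *Hey1* (adjusted p = 0.0670) and 0.32 for *Heyl* (adjusted p = 0.177).

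None of 29 other endothelial genes passed (17 below 0, median -0.01), with 0.10 for the amino acid transporter subunit *Slc3a2* (adjusted p = 0.112). None of 17 other mural genes passed (9 below 0, median 0.00, from -0.0011), with -0.46 for *Rgs4* (adjusted p = 0.0777), which neurons also make, and 0.10 for *Cald1* (adjusted p = 0.185). None of 13 basement membrane genes passed (6 below 0, median 0.01), with -0.29 for *Lamb1* (adjusted p = 0.0953) and 0.09 for *Lama2* (adjusted p = 0.338).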

How the data were processed

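Stranded paired-end mRNA libraries were made from ventral striatum of 15 mice. The authors aligned reads with STAR to UCSC mm10 (GRCm38), counted them, and used DESeq2; the deposited values are rlog values on a log2 scale, corrected for library size. rlog draws low genes toward their mean, which makes their fold changes smaller. Counts were not analysed here, so depth is unknown. The table had 24982 symbols with values from -2.27 to 17.1, and 4759 symbols were 0 throughout.

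The minimum for testing was a mean rlog of 3, which 15261 genes reached. The test was that of limma 3.58.1 under R 4.3.3 (variance trend, 2-sided moderated test), with Benjamini-Hochberg adjustment over all genes and a threshold of 0.05. The fit over both sexes had sex as a term, each sex was fitted alone, and the interaction and the WT sex difference came from 4 group means. The fits over both sexes, in each sex and for the interaction were run on simulated data, with results not reported here. The WT sex difference was not simulated. Exact permutations used scipy 1.17.1 and plots matplotlib 3.10.9 in Python 3.11.15.

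The members and lists were chosen with earlier results of these data known. Values are given for the 4 members with the smallest p in each fit, for *Cldn5*, *Pecam1*, *Pdgfrb* and *Acta2*, and for up to 2 genes of each other list; *Myh11*, *Flt1*, *Ly6c1* and the genes that overlap or resemble a member were added after their values were seen. Some genes that this rule names are not reported here. Alternatives were the minimum, the variance trend, quantile normalization, centring, sample weights, a replicate block, no sex term, shared spread, an ordinary linear model, the projection neuron covariate and leaving out mice. The deviations of same-numbered KO and WT mice had r of 0.13, 0.35 and 0.37 in males and 0.40, 0.03, -0.19 and 0.44 in females. The sources used here give no pairing by number, and the main fits used none. The replicate block served as an alternative only.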

Additional observations from a re-analysis of the deposited data

Results flagged for a closer look

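*Myh11* in WT female 4 stood at 8.82 (8.8238), away from the other WT females at 8.22 to 8.31. It was the 1 value set apart from the rest of its group among 60 groups examined, and chance sets about 1 in 20 groups apart. WT female 4 also had the highest *Acta2* and *Tagln* of the WT females.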

How the results depend on the processing

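Over both sexes 1 gene of 32 was called. Sample quality weights called 5 (*Itm2a*, *Ly6c1*, *Slco1a4*, *Slco1c1* and *Tagln*, all lower), and the projection neuron covariate and the ordinary linear model called 0. Leaving out single mice gave 0 to 1. Among all genes tested, 196 were called, against 51 with no minimum, 4767 with weights, 925 with the replicate block, 1 with the projection neuron covariate, 13 with the ordinary linear model, 2179 without WT male 3 and WT female 1, and 5 to 1444 without single mice. In males 0 members were called, against 2 with weights (*Slco1c1* and *Tagln*), 1 without WT male 3 and WT female 1 together, and 0 to 1 without single mice (*Tagln* without WT male 3, adjusted p = 0.0181). The male median of 0.04 became 0.16 with the projection neuron covariate. In WT females against WT males, weights called 2 (*Cdh5* and *Itm2a*) where 0 were called. Counts over all genes under these settings are not given here for males or for the WT sex difference. These calls of members therefore cannot be set against a share of all genes. The change of *Pecam1* reversed to 0.0328 with the projection neuron covariate and to 0.0113 without KO female 1, in a range of -0.0806 to 0.0113 over single mice left out. With the replicate block *Tagln* kept its call over both sexes (limma adjusted p = 0.0258), and in males 0 members were called. Of 816 alternative values, 757 kept their direction and their side of the threshold, or for counts and medians were labeled as close to the value reported. Some could not change. Leaving out a KO mouse does not alter the WT sex difference. The minimum and the variance model do not alter a fold change. Medians labeled as close included -0.11 and 0.0011 beside -0.04 over both sexes. The count is therefore no measure of stability. The cause was not tested for any of the shifts given here. With 3 or 4 mice a group and unknown depth, a gene whose interval spans 0 may have changed by any amount inside it.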

Other observations

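Genes of other cells around vessels and ventricles were also measured, where 48.9% of all genes tested were below 0 over both sexes. Of 15 fibroblast and meningeal genes, 14 had a log2 fold change above 0 in KO mice over both sexes, with a median of 0.13 and none past the threshold. In females the median was 0.18 and in males 0.01. *Fmod*, a matrix proteoglycan, changed by 0.33 (adjusted p = 0.0694) and *Aldh1a2*, which makes retinoic acid, by 0.33 (adjusted p = 0.0773). Of 14 choroid plexus and ependymal genes, 13 were above 0, with a median of 0.21, of 0.35 in males and 0.05 in females, and none past the threshold. *Kcnj13*, a channel of the choroid plexus, changed by 0.22 (adjusted p = 0.0611) and *Folr1*, its folate receptor, by 0.14 (adjusted p = 0.109).

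All 11 microglial genes were below 0 in KO mice over both sexes (median -0.15), with -0.19 for the growth factor receptor *Csf1r* (adjusted p = 0.0812). In males 8 of the 11 were below 0 (median -0.08), and in females all 11 were (median -0.16). Of 5 perivascular macrophage genes 3 were above 0 (median 0.01), with 0.07 for *Lyve1* (adjusted p = 0.120). Of 10 astrocyte genes 7 were above 0 (median 0.03), with 0.54 for the filament gene *Gfap* (adjusted p = 0.0526) and 0.43 for *Gjb6* (adjusted p = 0.0539). Of 8 oligodendrocyte precursor genes, which share *Cspg4* with pericytes as a marker, 7 were above 0 (median 0.10).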
